A study of Mus musculus with 10 samples.

Results

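Transcripts of 5 solute carrier families that move amino acids across membranes (Slc1, Slc7, Slc36, Slc38 and Slc43) were followed in Hepa1-6 cells, a mouse hepatoma line, after contact with cytotoxic T cells. Members were all rows of the deposited gene table whose symbol is 1 of these family names followed by "a" and a number, with 1 member not analysed here, which gave 39 of 34745 genes. RNA sequencing covered 10 libraries of wild-type Hepa1-6 cells. In 5 libraries the cells had been co-cultured for 48 h with CD8+ T cells, and in the other 5 they had received no treatment. The T cells came from spleens of male C57/BL6 mice aged 6 to 8 weeks and had been activated for 5 days with anti-CD3 and anti-CD28 antibodies before they met the hepatoma cells. Suspended cells were rinsed off before RNA extraction, so the RNA came from whatever still adhered to the plate. Hepa1-6 is 1 established line, and the labels do not say whether the libraries of a group came from separate cultures, so p-values measure the spread between these libraries only. The comparison asks how transcript levels in the adherent cells differed between co-culture with activated T cells and no treatment.

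Amino acid carriers divide the work by substrate and by membrane. Sodium-coupled carriers of the Slc38 family load cells with glutamine and other small neutral amino acids, and exchangers of the Slc1 and Slc7 families trade these for other substrates such as leucine. Several Slc7 proteins are light chains that reach the cell surface only when bound to a heavy chain, Slc3a2 or Slc3a1, while carriers of the Slc36 family and some Slc38 proteins sit on lysosomes and related compartments, where amino acid supply is sensed for mTORC1. Transcripts of many of these carriers are induced by the transcription factor Atf4 when amino acids run short, and tumour cells depend on several of them for glutamine and leucine.

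Library totals ran from 12922263 to 17100662 counts. Levels are given as FPKM as deposited (fragments relative to gene length and sequencing depth), and differences as log2 fold changes of co-cultured over untreated cells with standard errors, from edgeR's quasi-likelihood test on the deposited counts with Benjamini-Hochberg adjustment over 12666 genes. A gene was called at an adjusted p below 0.05. The fold changes include a scaling between libraries (TMM) that the FPKM do not. The hepatoma label was checked against 16 hepatocyte and hepatoma markers. Their summed level was 1374 to 1637 CPM (counts relative to depth) in co-cultured and 1507 to 1811 CPM in untreated libraries, mostly from keratins. The fetal liver protein alpha-fetoprotein was present (Afp, 3.67 ± 0.154 FPKM in co-cultured and 4.63 ± 0.473 FPKM in untreated cells, SD, n = 5 each). Of 6 tested, 1 rose (Trf, transferrin, at 274 counts in co-cultured and 2 in untreated libraries) and 2 fell (Krt8 and Afp). Of the liver genes in the list, Foxa2, a liver and gut transcription factor, stood at 8.40 ± 0.548 FPKM in co-cultured and 7.69 ± 0.456 FPKM in untreated cells, and the apolipoprotein Apoa2 at 1.68 ± 0.436 and 1.49 ± 0.329 FPKM (SD, n = 5 each), neither called. Others were near 0, among them Apoa1, Apob, Apoh, Ttr and Serpina1a, with Alb at 4 counts in all co-cultured and 0 counts in all untreated libraries and Hnf4a at 1 and 0 counts. T cell markers were scarce: 8 of 17, among them Cd3e, Cd8a, Gzma and Prf1, had no count in any library, the 1 tested (Cd28) was not called, and the list summed to 1.78 to 2.33 CPM in co-cultured and 0.527 to 2.06 CPM in untreated libraries. Of 17 macrophage and monocyte markers, all with counts and 8 of them tested, 5 were higher and 0 lower after co-culture, and the list summed to 97.4 to 117 CPM in co-cultured against 63.2 to 68.8 CPM in untreated libraries. Of 13 neutrophil markers, 3 had no count (Mpo, Elane and Retnlg) and 3 were tested, of which 2 rose (Mmp8 and Mmp9) and 1 fell (Ly6g). The 13 summed to 121 to 128 CPM in co-cultured against 84.6 to 108 CPM in untreated libraries. In bulk RNA, fewer cells of a type and less RNA per cell cannot be told apart, and the part these other markers have in the differences below was not tested.

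Of the 39 members, 20 had enough counts to be tested and 19 did not, and 10 had no count in any library. In the 20 tested members, 3 rose (Slc7a6, Slc36a4 and Slc43a2), 4 fell (Slc1a4, Slc1a5, Slc1a7 and Slc38a7) and 13 were not called. That is 7 of 20, a share close to the 33.5% called in either direction over all tested genes (17.4% higher and 16.1% lower), so the number of called members is no result about these families. All 3 tested Slc1 genes fell. The Slc7, Slc36 and Slc43 families each had 1 riser among 5, 3 and 2 tested members, and Slc38 had 1 faller among 7. The log2 fold changes of the 20 members ran from -2.18 to 0.78 with a median of -0.01, against a median of 0.01 over all tested genes, and 1 member, Slc1a7, was called with a change of at least 1.5-fold, where 8.1% of all tested genes were. Groups did not overlap for 2 members that were higher and 2 that were lower after co-culture, where 15.2% and 9.65% of all tested genes had such separated groups. Among 156 tested solute carrier genes of other families, 26 rose and 34 fell, with a median of -0.02.

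**Figure D1:**
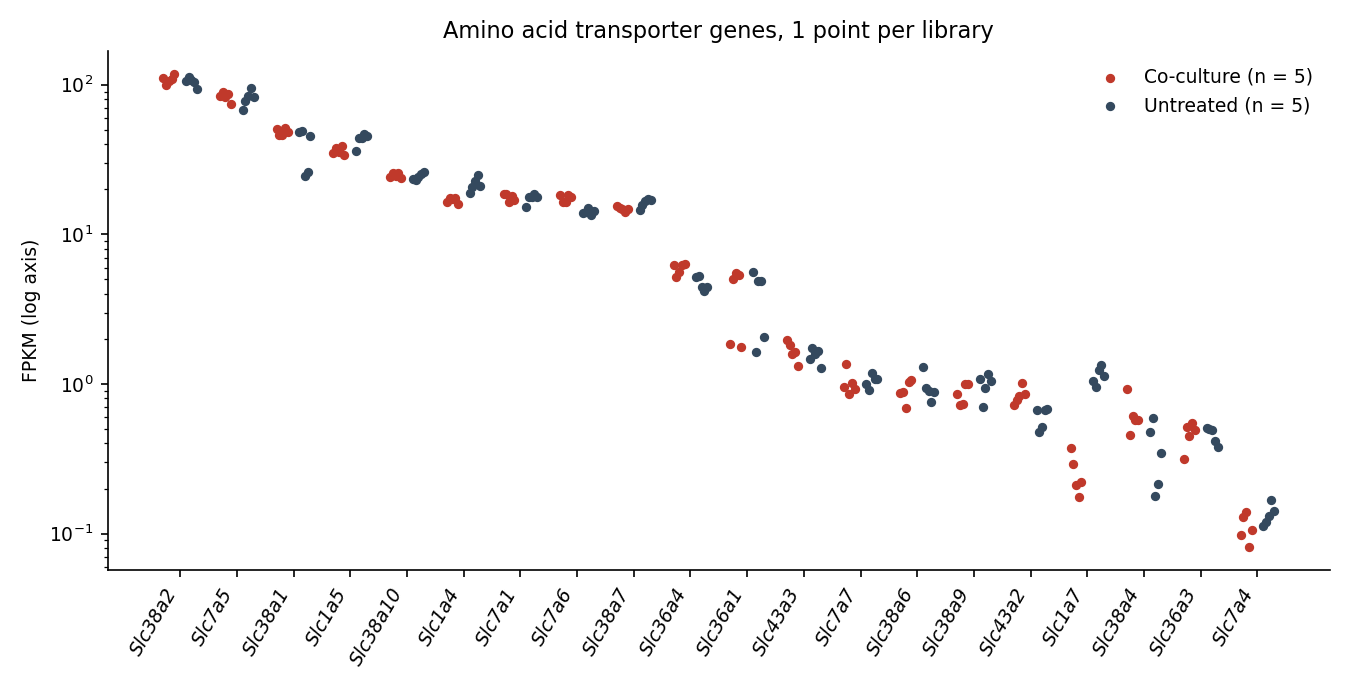
Level of each of the 20 tested transporter genes in every library, in FPKM on a log axis, co-cultured cells in red and untreated cells in dark grey-blue with 1 point per library. Slc38a2 and Slc7a5 lead in both groups, and Slc1a7 is the gene whose groups lie farthest apart.

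**Figure D2:**
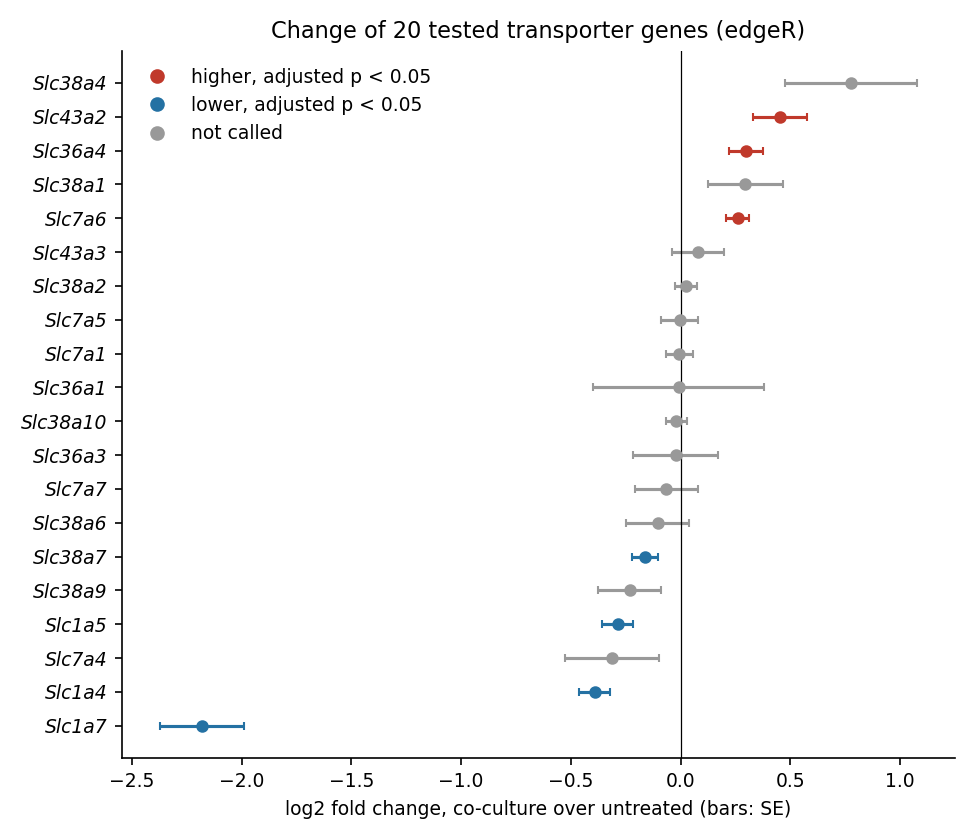
Log2 fold change of co-cultured over untreated cells for each tested transporter gene, with bars of 1 standard error (n = 5 libraries per group), sorted by change and coloured by call. All 3 Slc1 genes lie below 0, and most other members lie close to 0.

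Sequences near the start of 4 called members are shown because their groups did not overlap (Slc1a7, Slc1a4 and Slc7a6) or because they hold an E-box (Slc38a7, and Slc1a7 as well). Slc43a2, whose groups did not overlap either, is not shown. Sequence is from RefSeq promoter windows on GRCm38.p6, on the strand of the gene. For Slc1a4 (chr11:20332714-20332963, minus strand) and Slc7a6 (chr8:106168604-106168853, plus strand) the 250 bases before the RefSeq start are given, and for Slc1a7 (chr4:107968334-107968363, plus strand) and Slc38a7 (chr8:95853508-95853537, minus strand) the 30 bases around the motif. Both of these stretches lie before the RefSeq start but inside the gene as the deposited table bounds it, since the table starts Slc1a7 and Slc38a7 farther upstream than RefSeq does. A further RefSeq window of Slc7a6 (chr8:106168671-106168920) is not shown. Capitals mark the E-box CACGTG.

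Slc1a7: ggacgccccgacCACGTGgcctgctctaat
Slc38a7: gtgattcaggctCACGTGttacttgagtcg
Slc1a4: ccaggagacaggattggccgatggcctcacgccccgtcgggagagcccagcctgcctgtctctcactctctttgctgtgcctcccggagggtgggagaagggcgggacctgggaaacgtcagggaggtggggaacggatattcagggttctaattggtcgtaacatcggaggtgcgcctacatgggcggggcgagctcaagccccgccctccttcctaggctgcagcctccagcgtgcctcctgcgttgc
Slc7a6: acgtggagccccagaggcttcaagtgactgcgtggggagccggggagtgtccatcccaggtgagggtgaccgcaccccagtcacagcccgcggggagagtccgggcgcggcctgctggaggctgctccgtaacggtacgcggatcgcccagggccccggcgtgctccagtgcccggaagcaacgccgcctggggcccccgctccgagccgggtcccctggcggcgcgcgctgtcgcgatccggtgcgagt

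Both strands of the 250 bases before the RefSeq start were searched for CACGTG, a palindrome bound by basic helix-loop-helix factors such as Myc and the MiT family, and for TGATGNAA, the composite site of C/EBP and ATF factors that Atf4 uses. Of 28 members with a window, 7 held CACGTG (Slc1a6, Slc1a7, Slc36a1, Slc38a5, Slc38a7, Slc43a1 and Slc7a14), and 6.86% of 27025 genes did. Among these, Slc1a6, Slc38a5 and Slc7a14 had no count in any library, and Slc43a1 had 2 counts in co-cultured and 0 in untreated libraries. The share with the motif was not tested against that of all genes. The motif ended 55 bases before the RefSeq start of Slc1a7 and 29 bases before that of Slc38a7, in both genes just downstream of the start in the deposited table. TGATGNAA was found for 1 of 28 members (Slc7a7), against 3.91% of all genes. The other members had no window, among them Slc1a5, Slc7a5 and Slc38a1, and sequence after the start was not searched. Absence of a match here does not show that a carrier lacks the site. The longer form TCACGTGA, which contains CACGTG, was found for 0 of 28 members and 0.907% of all genes. Such matches describe letters in a window and are no evidence of binding.

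Both neutral exchangers of the Slc1 family fell. Slc1a5, a main route of glutamine into tumour cells, lies at chr7:16781340-16798274 (plus strand, mm10, as all positions of genes here). Its level was 35.2, 37.6, 35.7, 38.7 and 34.0 FPKM in co-culture replicates 1 to 5, against 36.05, 44.0, 43.9, 46.9 and 45.3 FPKM in untreated replicates 1 to 5. Untreated replicate 1 lay inside the range of the co-cultured libraries, and the other 4 untreated libraries lay above it. The log2 fold change was -0.29 ± 0.0708 (SE; edgeR adjusted p = 0.00721). Slc1a4 (chr11:20302180-20332713, minus strand), which exchanges serine, alanine and threonine, stood at 16.5, 17.5, 17.3, 17.5 and 15.9 FPKM in co-cultured cells, against 18.9, 20.9, 22.6, 24.9 and 21.1 FPKM in untreated cells. The groups did not overlap, and the log2 fold change was -0.39 ± 0.0711 (edgeR adjusted p = 0.000935).

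Among the Slc1 glutamate transporters, known mainly from neurons, glia and retina, the low-level Slc1a7 was the only one with enough counts for the test. Slc1a7, the retinal glutamate transporter and chloride channel (chr4:107968332-108013532, plus strand), was at 0.373, 0.291, 0.210, 0.175 and 0.221 FPKM in co-cultured cells, against 1.04, 0.953, 1.23, 1.34 and 1.13 FPKM in untreated cells. Every co-cultured library lay below every untreated one, and the log2 fold change of -2.18 ± 0.192 (edgeR adjusted p = 2.42e-06) was the largest among the tested members. This rests on 91 counts in all co-cultured and 424 counts in all untreated libraries. Slc1a3, the glial glutamate transporter, had 15 counts in co-cultured and 11 counts in untreated libraries, and the related Slc1a2 had 14 in each group. Slc1a1 and Slc1a6 had none in any library.

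**Figure D3:**
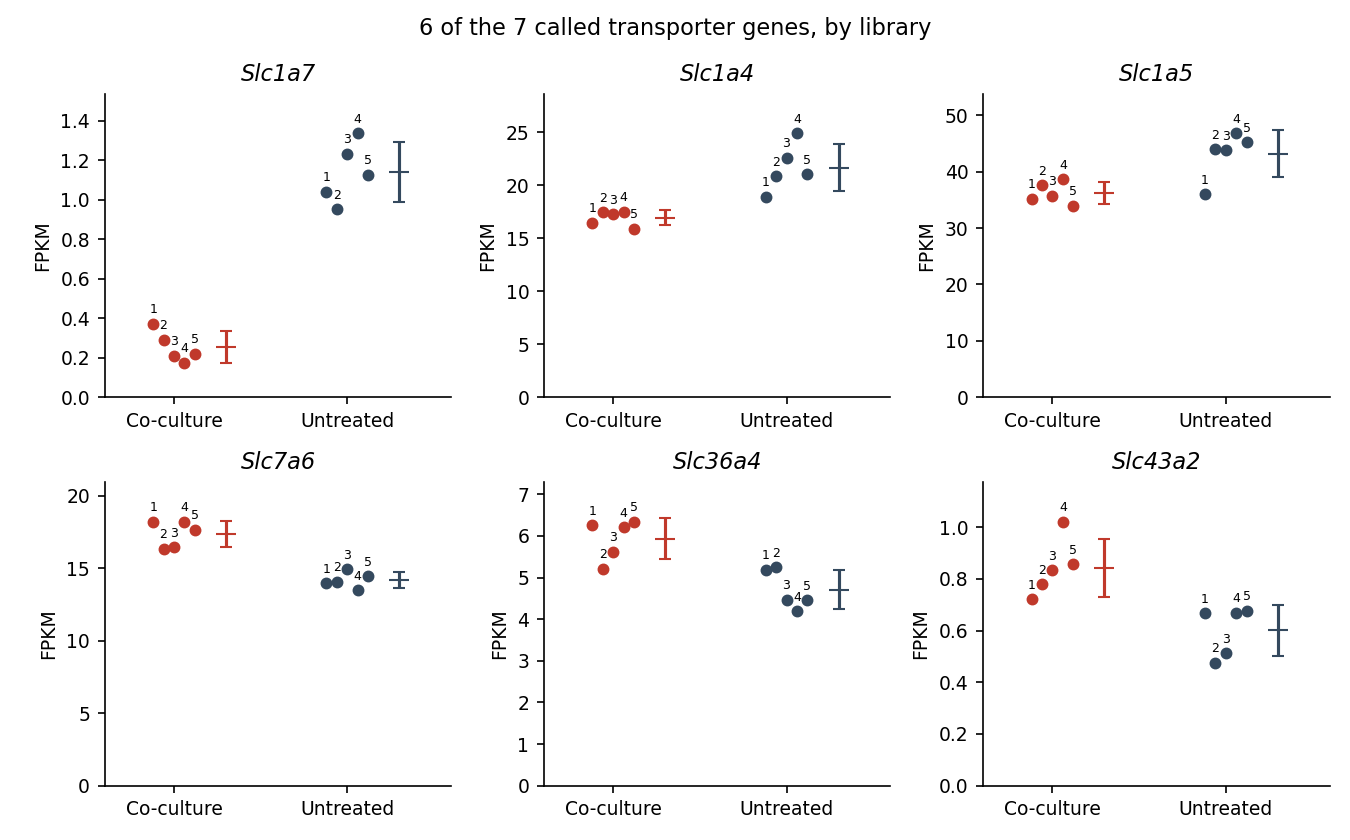
Level in FPKM of 6 of the 7 called transporter genes in each library, co-cultured cells left and untreated cells right in each panel, with the mean and SD (n = 5 libraries each). Slc1a4, Slc1a7, Slc7a6 and Slc43a2 have no overlap between groups, and in Slc1a5 untreated replicate 1 falls within the co-cultured range.

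Of the 3 tested light chains, 1 rose and the other two were not called. Slc7a5, which imports leucine and other large neutral amino acids in exchange for glutamine (chr8:121881150-121907694, minus strand), was at 84.7, 89.9, 82.6, 86.9 and 74.3 FPKM in co-cultured cells, against 68.3, 78.2, 84.1, 95.8 and 83.3 FPKM in untreated cells. The co-cultured range lay within the untreated one, with untreated replicates 1 and 4 at its ends. The log2 fold change was -0.00313 with a 95% interval of -0.17 to 0.16 (edgeR adjusted p = 0.983). Its heavy chain Slc3a2 (chr19:8706882-8723369, minus strand), which is no member of the 5 families, was at 42.96, 53.4, 43.4, 50.1 and 43.7 FPKM in co-cultured cells, against 38.5, 41.7, 48.6, 49.8 and 52.5 FPKM in untreated cells. These groups overlapped too (log2 fold change -0.02 ± 0.0952, edgeR adjusted p = 0.908). In FPKM, the ratio of Slc7a5 to Slc3a2 was 1.97, 1.68, 1.91, 1.73 and 1.70 in co-cultured cells, against 1.77, 1.88, 1.73, 1.92 and 1.59 in untreated cells. The mean log2 ratio differed by 0.02 between the groups (2-sided exact permutation test over all arrangements of the libraries, p = 0.825, also 0.825 when adjusted over 2 ratios; the smallest p this design allows is 0.00794).

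Slc7a6 was the light chain that rose. It exchanges cationic amino acids such as arginine for glutamine or leucine, also bound to Slc3a2, and lies at chr8:106168875-106198704 on the plus strand. Co-cultured cells had 18.2, 16.3, 16.4, 18.2 and 17.6 FPKM of Slc7a6, against 14.0, 14.1, 14.9, 13.5 and 14.4 FPKM in untreated cells. All 5 co-cultured libraries lay above all untreated ones, and the log2 fold change was 0.26 ± 0.0508 (edgeR adjusted p = 0.00160). Slc7a7, the related exchanger best known from kidney and gut, averaged 1.02 ± 0.193 FPKM in co-cultured and 1.05 ± 0.103 FPKM in untreated cells (SD, n = 5 each) and was not called (edgeR adjusted p = 0.769). It shares its locus with Oxa1l on the opposite strand, which had 7238 counts in co-cultured and 7981 counts in untreated libraries, and the strand setting of the counting is not stated.

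Of the cationic amino acid transporters, Slc7a1, the widespread carrier of arginine and lysine (chr5:148327410-148399904, minus strand), was not called. It stood at 18.5, 18.6, 16.6, 18.1 and 17.1 FPKM in co-cultured cells, against 15.2, 17.7, 17.8, 18.7 and 17.8 FPKM in untreated cells. The groups overlapped, and the difference was -0.01 on the log2 scale with a 95% interval of -0.13 to 0.12 (edgeR adjusted p = 0.959). Slc7a4, a relative with no settled substrate, averaged 0.111 ± 0.0235 FPKM in co-cultured and 0.135 ± 0.0220 FPKM in untreated cells (SD, n = 5 each; edgeR adjusted p = 0.290). It overlaps P2rx6 on the opposite strand, which itself fell (391 counts in co-cultured and 684 counts in untreated libraries, log2 fold change -0.78, edgeR adjusted p = 0.00110).

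Slc7a2 and Slc7a8 had too few counts for the test and are given because of their counts, which were seen before they were picked. Slc7a2, the cationic transporter that activated macrophages and hepatocytes use for arginine, had 9, 11, 7, 6 and 15 counts in co-cultured libraries, against 0 in every untreated library. The 48 counts of co-cultured against 0 of untreated libraries put its level at least 16.7-fold higher, with a floor of 3 counts over the 5 untreated libraries. This bound allows for counting error in the untreated libraries only. Slc7a8, the epithelial light chain for neutral amino acids, had 2, 4, 4, 3 and 4 counts in co-cultured against 0, 0, 1, 0 and 0 counts in untreated libraries. The ratio of summed counts scaled to depth was 17.8, with an exact 95% interval of 2.78 to 742 for counting error only. Both passed when the filter on low counts was dropped (edgeR adjusted p = 0.000136 for Slc7a2 and 0.00660 for Slc7a8), which made the count of risers 5, where 10.2% of all genes were higher without that filter. These p-values come from the same counts for which both genes were picked, so they are no separate support. In the same libraries, 5 of 8 tested macrophage and monocyte markers rose and 0 fell. Among the risers, Lyz2, a lysozyme, averaged 14.6 ± 1.78 FPKM in co-cultured and 0.727 ± 0.196 FPKM in untreated cells (SD, n = 5 each). Adgre1 and Cybb rose with log2 fold changes of 4.47 and 4.49. Cd68 was not called (log2 fold change 0.00561, edgeR adjusted p = 0.968). Cd163, not tested, had 15 counts in co-cultured and 30 in untreated libraries. Of the neutrophil markers, the collagenase Mmp8 had 293 counts in co-cultured and 0 in untreated libraries, while Ly6g fell (log2 fold change -0.96). The part of cells with such markers in the counts of Slc7a2 and Slc7a8 was not tested.

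The sodium-coupled system A carriers Slc38a1, Slc38a2 and Slc38a4 lie in a row on chromosome 15, with gaps of 44.5 kb between Slc38a1 and Slc38a2 and 295 kb between Slc38a2 and Slc38a4, and none was called. Slc38a2, the carrier that amino acid shortage induces in many cells (chr15:96687394-96699698, minus strand), had the highest FPKM among the members. It was at 111, 100.3, 107, 109 and 117 FPKM in co-cultured cells, against 106, 112, 107, 104 and 94.3 FPKM in untreated cells. The groups overlapped widely, and the 95% interval of the log2 fold change ran from -0.08 to 0.12 around 0.02 (edgeR adjusted p = 0.761).

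Slc38a1, a glutamine carrier of growing cells (chr15:96571418-96642913, minus strand), had a wide spread among untreated libraries. Its level was 50.8, 46.3, 46.5, 51.1 and 48.4 FPKM in co-cultured cells, against 48.3, 49.4, 24.4, 26.2 and 45.5 FPKM in untreated cells. Untreated replicates 3 and 4 were low, and the other 3 untreated libraries lay at the level of the co-cultured ones. The highest library was 1.10 times the lowest in co-cultured and 2.02 times in untreated cells, and 1.95% of 9916 genes with a mean of at least 100 counts were as wide in untreated cells, where the median gene spanned 1.22 times. The log2 fold change was 0.30 ± 0.173 with a 95% interval of -0.04 to 0.63 (edgeR adjusted p = 0.213). The ratio of Slc38a2 to Slc38a1 was 2.19, 2.17, 2.30, 2.14 and 2.42 in co-cultured cells, against 2.19, 2.27, 4.39, 3.97 and 2.07 in untreated cells. The mean log2 ratio was lower by 0.33 after co-culture, within the spread of the untreated libraries (difference -0.33, exact permutation p = 0.333, adjusted over 2 ratios 0.667).

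Slc38a4, a system A carrier of adult liver that also takes cationic amino acids (chr15:96994823-97055956, minus strand), was low and is shown because its call turned on the tool. It was at 0.927, 0.453, 0.615, 0.572 and 0.572 FPKM in co-cultured cells, against 0.481, 0.591, 0.178, 0.214 and 0.346 FPKM in untreated cells. Untreated replicates 1 and 2 lay within the co-cultured range and the other 3 below it. The lowest were untreated replicates 3 and 4, which were also the low ones for Slc38a1. The log2 fold change was 0.78 ± 0.301 (edgeR adjusted p = 0.0631). DESeq2 gave an adjusted p of 0.0410 and limma on log2(FPKM + 1) gave 0.0455.

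**Figure D4:**
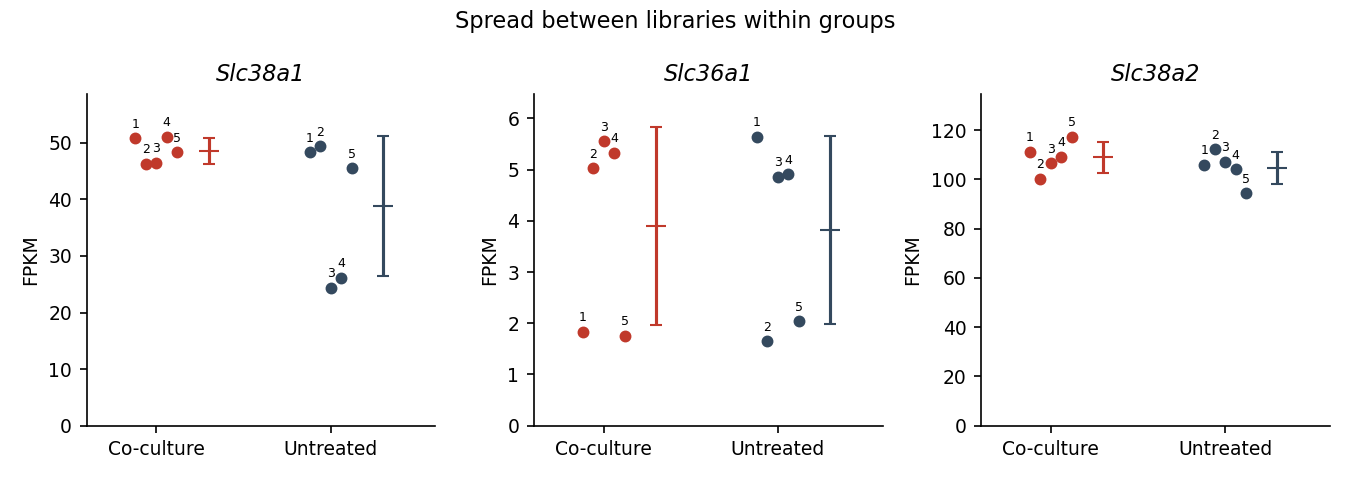
Level of Slc38a1, Slc36a1 and Slc38a2 in FPKM in each numbered library, co-cultured cells left and untreated cells right, with the mean and SD (n = 5 each). For Slc38a1 untreated replicates 3 and 4 stand at 24.4 and 26.2 FPKM below the others, and for Slc36a1 both groups split into libraries at 2.04 FPKM or less and libraries at 4.86 FPKM or more.

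Some of the other Slc38 proteins act inside the cell. Slc38a7, which releases glutamine from lysosomes (chr8:95835920-95853539, minus strand), stood at 15.5, 15.1, 14.9, 14.0 and 14.8 FPKM in co-cultured cells, against 14.7, 15.8, 16.7, 17.1 and 17.0 FPKM in untreated cells. The groups overlapped through untreated replicate 1, and the log2 fold change was -0.16 ± 0.0576 (edgeR adjusted p = 0.0442). This call was lost in 7 of 10 fits that each left out 1 library (co-culture replicate 1, 3, 4 or 5, or untreated replicate 3, 4 or 5), with adjusted p up to 0.102. Slc38a10, a carrier of small neutral amino acids (chr11:120103960-120151346, minus strand), was at 24.3, 25.6, 24.5, 25.5 and 23.9 FPKM in co-cultured cells, against 23.5, 23.2, 24.3, 25.3 and 26.3 FPKM in untreated cells. All co-cultured libraries lay within the untreated range (log2 fold change -0.02, 95% interval -0.12 to 0.08, edgeR adjusted p = 0.806). Slc38a9, the lysosomal arginine sensor of mTORC1, averaged 0.864 ± 0.139 FPKM in co-cultured and 0.989 ± 0.182 FPKM in untreated cells (SD, n = 5 each; edgeR adjusted p = 0.245), and Slc38a6 was not called either (edgeR adjusted p = 0.626). Of the system N carriers, Slc38a3 had 2 counts in co-cultured and 0 in untreated libraries, and Slc38a5 had none.

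Slc36a4, a high-affinity carrier of proline and tryptophan that has been tied to mTORC1 (chr9:15709738-15742384, plus strand), rose. Its level was 6.26, 5.21, 5.62, 6.21 and 6.34 FPKM in co-cultured cells, against 5.18, 5.25, 4.47, 4.20 and 4.45 FPKM in untreated cells. Of the co-cultured libraries, 4 of 5 lay above all untreated ones, and replicate 2 lay between the highest untreated libraries (log2 fold change 0.30 ± 0.0776, edgeR adjusted p = 0.00946). Its relative Slc36a1, a proton-coupled exporter of lysosomal amino acids (chr11:55204350-55236330, plus strand), is shown for its spread. It stood at 1.84, 5.03, 5.56, 5.33 and 1.76 FPKM in co-cultured cells, against 5.64, 1.65, 4.86, 4.91 and 2.04 FPKM in untreated cells. Low and high libraries occurred in both groups, 2 low ones in each, so the log2 fold change of -0.01 had a wide 95% interval of -0.78 to 0.76 (edgeR adjusted p = 0.989). The highest library was 3.16 times the lowest in co-cultured and 3.43 times in untreated cells, and 0.565% and 0.424% of genes were as wide in those groups. The libraries low in Slc36a1 (co-culture replicates 1 and 5, untreated replicates 2 and 5) were not those low in Slc38a1. Slc36a3, a testis gene 6.76 kb from Slc36a2 in the same cluster as Slc36a1, was not called at 0.463 ± 0.0905 FPKM in co-cultured and 0.459 ± 0.0598 FPKM in untreated cells (SD, n = 5 each; edgeR adjusted p = 0.944).

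Slc43a2, a facilitated carrier of leucine, phenylalanine and methionine (chr11:75531694-75577575, plus strand), rose at a low level. Its values were 0.722, 0.779, 0.832, 1.02 and 0.857 FPKM in co-cultured cells, against 0.667, 0.476, 0.513, 0.670 and 0.677 FPKM in untreated cells. The groups did not overlap, and the log2 fold change was 0.45 ± 0.122 (edgeR adjusted p = 0.0116), from 1126 counts in all co-cultured and 841 counts in all untreated libraries. Slc43a3, whose protein carries purine nucleobases rather than amino acids, averaged 1.66 ± 0.240 FPKM in co-cultured and 1.54 ± 0.182 FPKM in untreated cells (SD, n = 5 each; edgeR adjusted p = 0.656). Slc43a1, the leucine carrier 73.0 kb from Slc43a3, had 2 counts in co-cultured and 0 in untreated libraries.

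Few members made up most of the summed FPKM of the members, a measure that depends on the gene lengths used for the FPKM, which were not checked. Counts gave another order. In co-cultured libraries Slc38a1 had 30170 counts and Slc7a5 26714, and Slc38a10 had 23669 and Slc1a5 18525. The FPKM of all members summed to 386 ± 8.42 in co-cultured and 379 ± 11.1 in untreated cells (SD, n = 5 each). Slc38a2, Slc7a5, Slc38a1 and Slc1a5 together held 71.9% ± 0.469 of that sum in co-cultured and 71.0% ± 1.24 in untreated cells. Slc38a2 alone held 28.2% in co-cultured and 27.7% in untreated cells, and Slc7a5 21.7% and 21.6%. The share of Slc1a5 averaged 9.39% in co-cultured and 11.4% in untreated cells, and that of Slc1a4 4.39% and 5.72%. Of the tested members, 9 averaged at least 10 FPKM over the 10 libraries, 4 lay between 1 and 10 FPKM, and 7 lay below 1 FPKM. Neighbours in this order whose ranges overlapped include Slc1a4 and Slc7a1 in co-cultured cells (16.9 ± 0.711 and 17.8 ± 0.916 FPKM) and Slc38a10 and Slc1a4 in untreated cells (24.5 ± 1.28 and 21.7 ± 2.23 FPKM). Slc38a2 lay above Slc7a5 in each of the 10 libraries.

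The remaining untested members were nearly silent: Slc7a3, a cationic transporter, had 32 counts in co-cultured and 24 in untreated libraries, Slc7a13 had 2 and 0, and Slc36a2 had 0 and 1. Besides those named above, Slc38a8, Slc38a11, Slc7a9, Slc7a10, Slc7a12, Slc7a14 and Slc7a15 had no count in any library. A count of 0 over a group allows a level of up to 0.0405 CPM in co-cultured and 0.0388 CPM in untreated cells (3 counts over the 5 libraries, counting error only).

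Genes that regulate the carriers or handle the imported amino acids were described by 6 lists. Of 21 tested targets and factors of the amino acid deprivation response, 0 rose and 12 fell (57.1%), with a median of -0.28, where 16.1% of all tested genes fell and 17.4% rose. Among them, Atf4, the factor itself, averaged 353 ± 12.5 FPKM in co-cultured and 428 ± 51.9 FPKM in untreated cells (SD, n = 5 each; log2 fold change -0.31, edgeR adjusted p = 0.00775). Its groups overlapped, with untreated replicate 1 at 340 FPKM inside the co-cultured range of 335 to 364 FPKM. Ddit3, a stress factor downstream of Atf4, averaged 11.2 ± 1.205 FPKM in co-cultured and 18.4 ± 2.58 FPKM in untreated cells (log2 fold change -0.75). The 3 with the smallest p were Pycr1 (proline synthesis, -0.79), Vldlr (lipoprotein uptake, -0.45) and Cbs (transsulfuration, -0.99). In the same list 9 genes were not called, among them Chac1 (0.02), Ddit4 (-0.01) and Cebpb (0.28). Slc38a2 and Slc7a5, textbook targets of Atf4, were not called, while Slc1a4 and Slc1a5 fell. The transporters and this list were not compared by a test.

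Of 21 tested heavy chains, amino acid sensors and mTORC1 regulators, 2 rose and 5 fell with a median of -0.03, a called share of 33.3% against 33.5% over all tested genes, so this count is at the background. Sesn3, a Sestrin that restrains mTORC1, averaged 7.74 ± 0.804 FPKM in co-cultured and 12.6 ± 0.866 FPKM in untreated cells (log2 fold change -0.73), Nprl2 of the inhibitory GATOR complex changed by 0.41, and Mtor by 0.21. The count of fallers in this list was 3 to 6 when 1 library was left out, and moved by over 1.5 times without co-culture replicate 4, co-culture replicate 5 or untreated replicate 3. The other heavy chain, Slc3a1, had 10 counts in all co-cultured and 10 in all untreated libraries.

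Of 19 tested glutamine and glutamate enzymes, 8 rose and 4 fell (63.2% called, against 33.5% over all tested genes), with a median of 0.06. Ctps, which makes CTP with glutamine nitrogen, averaged 27.1 ± 1.23 FPKM in co-cultured and 18.8 ± 1.52 FPKM in untreated cells (SD, n = 5 each; log2 fold change 0.50). Cad, the first enzyme of pyrimidine synthesis, rose (log2 fold change 0.36). Gfpt2, of hexosamine synthesis, fell at low level to 0.294 ± 0.0506 FPKM in co-cultured cells, against 0.736 ± 0.187 FPKM in untreated cells. The count of risers was 5 to 8 and that of fallers 2 to 4 when 1 library was left out. The risers moved by over 1.5 times without co-culture replicate 1, 4 or 5 or without untreated replicate 3, 4 or 5, and the fallers without co-culture replicate 5 or untreated replicate 4.

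Of 19 tested genes of branched-chain amino acid breakdown, 0 rose and 10 fell (52.6%, where 16.1% of all tested genes fell) with a median of -0.19. The list counts the regulators Bckdk and Ppm1k beside the enzymes. The 3 with the smallest p were the propionyl-CoA and methylmalonyl-CoA enzymes Pcca (-0.63) and Mut (-0.47) and Dbt (-0.43), a subunit of the branched-chain keto acid dehydrogenase. Of 16 tested arginine and polyamine enzymes, 2 rose and 5 fell (43.8% called, against 33.5% over all tested genes) with a median of -0.05. Arg1, the arginase of liver, averaged 22.9 ± 1.62 FPKM in co-cultured and 31.9 ± 1.57 FPKM in untreated cells (log2 fold change -0.51), Sat1, which acetylates polyamines, changed by -0.42, and Odc1, which makes putrescine, by 0.21. The fallers of this list were 3 to 5 when 1 library was left out, and moved by over 1.5 times without co-culture replicate 1, 4 or 5 or untreated replicate 3 or 4. Of 15 tested amino acid and peptide carriers of other families, 2 rose and 4 fell (40.0% called, against 33.5% over all tested genes) with a median of -0.18. Slc15a3, an endolysosomal peptide carrier of immune cells, averaged 0.624 ± 0.115 FPKM in co-cultured and 0.164 ± 0.0505 FPKM in untreated cells (SD, n = 5 each; log2 fold change 1.87). In the same libraries 5 of 8 tested macrophage and monocyte markers were higher, whose part was not tested. Serinc3, linked to serine incorporation into lipids, fell with a log2 fold change of -0.34, and Slc16a10, an aromatic amino acid carrier, with -0.56.

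**Figure D5:**
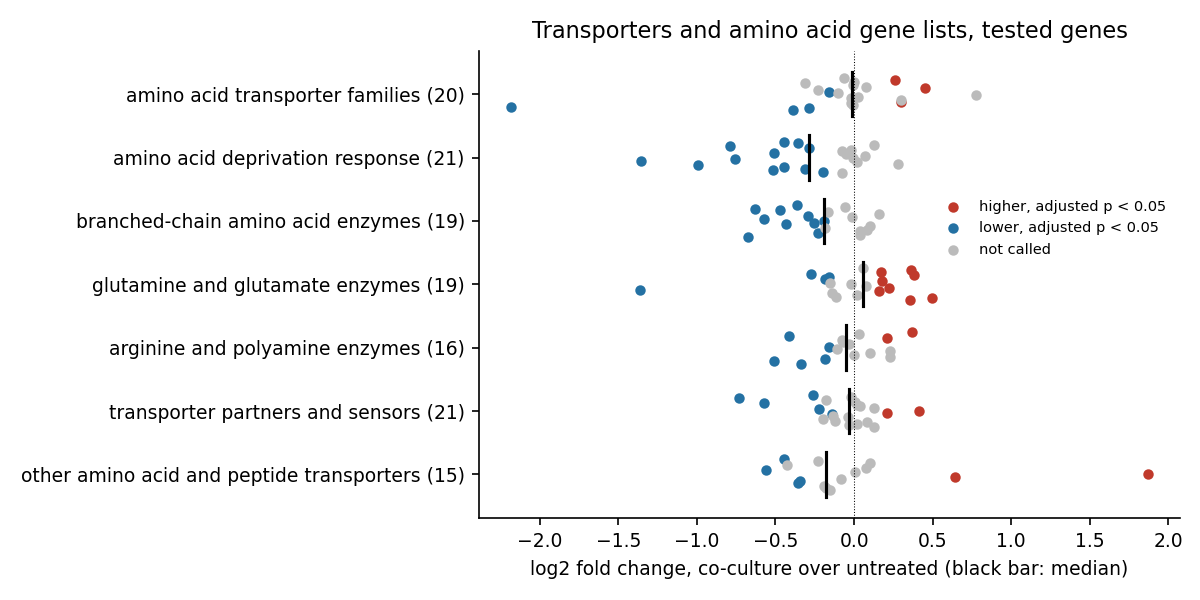
Log2 fold change of co-cultured over untreated cells for each tested gene of the transporter families and of 6 lists of related genes, coloured by call, with the list's median as a black bar and the number of tested genes in brackets. The median of the transporters lies at -0.01, and that of the deprivation response at -0.28.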

How the data were processed

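Deposited values were whole-number counts per gene, not normalized, and FPKM made by the authors, per the file headers. For 9379 genes counted 100 times or more in each library, counts and FPKM implied a gene length that was constant between libraries within 0.00104%. Whether it is the length of the transcripts was not checked. For Slc7a4 the implied length is above the span of its locus, so FPKM of different genes are compared with that limit. HISAT2 2.1.0, Bowtie2 2.2.5, RSEM 1.2.8 and build mm10 are named in the submitters' processing notes, without roles. Annotation release and strand setting: not given in the sources used here. Libraries were grouped by the treatment label. Counts were filtered with filterByExpr, scaled by TMM and tested with edgeR 4.0.16 (R 4.3.3). Limma 3.58.1 on log2(FPKM + 1) or log2(FPKM + 0.1), DESeq2 1.42.0, other scalings and filters, and each library left out in turn were alternatives. Replicate libraries differed beyond sampling noise in all 20 pairs (chi-square per degree of freedom 7.03 to 16.0). Families, lists and rules were chosen with earlier results of these data known, and not every gene of the 5 families is reported here. Values by library are given for called members averaging at least 5 FPKM in either group or, at 1.5-fold or more, 0.5 FPKM, for other members of at least 20 FPKM and for Slc3a2. Those of Slc7a1, Slc36a1, Slc38a4, Slc43a2, Slc7a2 and Slc7a8 were added after they were seen. For each related list the 3 genes with the smallest p are named. Atf4, Ddit3, Chac1, Ddit4, Cebpb and other markers beside them were picked after their values were seen. Positions of 31 of 39 members equal those of GENCODE M21. Ratios of FPKM were tested without a pseudocount by an exact permutation test (scipy 1.17.1).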

Additional observations from a re-analysis of the deposited data

Results flagged for a closer look

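In untreated replicate 1, Slc1a5 was at 36.05 FPKM, apart from the other untreated libraries at 43.9 to 46.9 FPKM, and Slc7a1 was at 15.2 FPKM, apart from the others at 17.7 to 18.7 FPKM. Both were flagged because 1 library stood apart from the rest of its group. Of 46 groups of 5 libraries examined in this way 2 were flagged, and chance flags about 1 in 20. The same library was the lowest untreated one for 5 of 9 members of at least 10 FPKM (Slc1a4, Slc1a5, Slc38a7, Slc7a1 and Slc7a5), and Atf4 was at 340 FPKM in it, against 425 to 470 FPKM in the other untreated libraries. Whether these values share a source was not tested.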

How the results depend on the processing

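Of the called members, Slc1a4, Slc1a5, Slc1a7, Slc7a6, Slc36a4 and Slc43a2 were called in all 10 fits that left out 1 library and in all 9 other settings. Slc38a7 lost its call with library totals only (adjusted p = 0.0777), without a filter (0.0507), with limma (0.0746 and 0.0755) and with the replicate block (0.124). Slc38a4 gained one without untreated replicate 2 (edgeR adjusted p = 0.0217), with DESeq2 (0.0410) and with limma (0.0455 and 0.0446). The members called were 3 higher and 4 lower in edgeR, 4 higher and 3 lower in limma, and 5 higher without the filter on low counts. Over all genes, 2204 were higher and 2044 lower in edgeR. Limma on log2(FPKM + 1) gave 2653 higher and 1746 lower, and edgeR without the filter 2016 higher and 2076 lower. The counts of members are thus no result about these families. With a change of at least 1.5-fold also required, 0 were higher and 1 lower, and over all genes 485 were higher and 541 lower. Leaving out 1 library gave 3 to 4 higher and 3 to 4 lower members, and over all genes 1849 to 2128 higher and 1813 to 2093 lower. The log2 ratio of Slc7a5 to Slc3a2 then differed by -0.0232 to 0.0463, with 3 of 10 values below 0.

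Members with a difference near 0 changed sign. With library totals, limma on FPKM + 1 and limma on FPKM + 0.1 the values were 0.0210, 0.0159 and 0.0171 for Slc36a1, 0.0143, 0.0144 and 0.0150 for Slc38a10, 0.0283, 0.0280 and 0.0295 for Slc7a1, 0.0307, 0.0357 and 0.0362 for Slc7a5 and 0.0154, 0.0183 and 0.0188 for Slc3a2. Slc36a3 came to 0.00924 with totals and 0.00246 with limma on FPKM + 1. With 1 library left out, values ran from -0.20 to 0.18 for Slc36a1, -0.0876 to 0.0874 for Slc36a3, -0.0452 to 0.00384 for Slc38a10, -0.0147 to 0.0463 for Slc38a2, -0.18 to 0.0241 for Slc38a6, -0.0599 to 0.0237 for Slc7a1, -0.0718 to 0.0631 for Slc7a5 and -0.0868 to 0.0288 for Slc3a2. Library totals and limma on FPKM use no TMM factors, which ran from 0.989 to 1.02 in co-cultured and from 0.977 to 1.00 in untreated libraries. The part of this scaling in the changes of sign was not tested.

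Replicate numbers are not stated to pair the libraries. Same-numbered libraries correlated at -0.192 to 0.109 over 10852 genes, and 1 of 5 co-cultured libraries correlated best with its own number. Low correlations cannot show that the libraries were handled without pairing. With the replicate block, 1762 genes were higher and 1625 lower, the members called were 3 higher and 3 lower, Slc7a5 differed by 0.00305, and the log2 ratio of Slc7a5 to Slc3a2 by 0.0174. Depth limits the low members most: Slc1a7 rests on 12 to 27 counts in a co-cultured library.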
